A study of Mus musculus with 24 samples.

Results

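MicroRNA (miRNA) levels in lung metastases of mouse mammary tumors were compared with those in areas of epithelial-mesenchymal transition (EMT) in the primary tumors. The samples were chosen by their titles, which gave 4 lung metastasis and 7 EMT-like samples, 11 of the 24 samples of the series. JygMC(A)-GFP/Luc cells, which carry green fluorescent protein and luciferase reporters, had been injected into the fourth mammary fat pad of female Balb/C nude mice aged 6 to 9 weeks. The parent JygMC(A) line came from a spontaneous mammary carcinoma of a wild mouse, has a mouse mammary tumor virus insertion at Int3/Notch4 and serves as a model of triple negative breast cancer. Primary tumors were removed, lung metastases were collected later, and areas of tissue were laser captured before their RNA was hybridized to the nCounter mouse miRNA panel. The comparison asks which miRNAs differ between EMT-like areas of the primary tumor and the metastases that grew in the lung.

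All 11 samples came from tumors of the same injected line in Balb/C nude hosts, which lack a thymus and most T cells. Lung metastasis replicates 1, 2, 3 and 4 shared an animal label with EMT-like replicates 1, 4, 6 and 7, so 4 pairs could be formed. The label of the first pair names 3 animals, and each of its samples was counted as 1. EMT-like replicates 2, 3 and 5 came from labels without a metastasis sample. Carcinoma areas of the primary tumors (n = 5) and laser-captured normal lung parenchyma (n = 2) are given for orientation. Normal mammary gland (n = 2) is given for a few miRNAs. Captured areas can hold vessels, leukocytes and stroma beside tumor cells, and no other measure of their cell content was used here.

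A miRNA is a short RNA that lowers the stability and translation of messenger RNAs, chiefly through pairing of its seed, bases 2 to 8. In EMT, epithelial cells lose junctions and polarity and take on a spindle shape. The miR-200 family is known for keeping mammary epithelial cells epithelial by repressing Zeb1 and Zeb2, which are repressors of E-cadherin, and Zeb1 and Zeb2 in turn repress the miR-200 genes. Mesenchymal cells are known to be rich in miR-199a and miR-214, and miRNAs that lie within the Hox clusters keep a record of a cell's position along the body axis.

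The miRNAs on which the comparison turns are given here from RefSeq (GRCm38.p6), each 5′ to 3′ with its seed in capitals. The first 6 were higher in lung metastasis or belong to the same family, and the miR-200 lines are shown to let their seeds be compared.
miR-200b-3p: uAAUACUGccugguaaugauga
miR-200c-3p: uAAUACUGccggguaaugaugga
miR-429-3p: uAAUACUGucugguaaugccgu
miR-200a-3p: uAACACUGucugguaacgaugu
miR-141-3p: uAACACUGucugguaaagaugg
miR-203-3p: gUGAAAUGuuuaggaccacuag
The 9 that follow were lower in lung metastasis.
miR-210-3p: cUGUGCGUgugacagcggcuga
miR-196a-5p: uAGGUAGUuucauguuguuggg
miR-10b-5p: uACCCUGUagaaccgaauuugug
miR-127-3p: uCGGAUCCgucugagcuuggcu
miR-27a-3p: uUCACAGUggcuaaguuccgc
miR-27b-3p: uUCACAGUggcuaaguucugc
miR-23a-3p: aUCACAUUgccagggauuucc
miR-31-5p: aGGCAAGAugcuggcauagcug
miR-199a-5p: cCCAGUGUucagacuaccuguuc

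The miR-200 family carries 2 seeds, one shared by miR-200b, miR-200c and miR-429 and the other by miR-200a and miR-141. Its genes lie in 2 clusters, so seed and position cut across each other. The mature miR-200b (chr4:156055685-156055706), miR-200a (chr4:156054911-156054932) and miR-429 (chr4:156053916-156053937) lie on the minus strand of chromosome 4, within the bounds of the long noncoding RNA gene Gm13648. The mature miR-200c (chr6:124718324-124718346) and miR-141 (chr6:124717917-124717938) lie on the minus strand of chromosome 6, within no other gene of the table. miR-27a and miR-27b share 1 seed and come from the miR-23a cluster on chromosome 8 and from within Aopep on chromosome 13. miR-10b lies within the bounds of Hoxd3 and Hoxd4 on chromosome 2 and miR-127 within those of Rtl1 in the Dlk1-Dio3 imprinted region of chromosome 12. The table gives no exons, so exonic and intronic positions were not told apart. Strands of the surrounding genes are not given here, so these positions name no host transcript.

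Each lane counted barcodes of 566 mouse miRNA probes. The deposit holds barcode counts less each lane's average over 6 negative control probes, and these were divided here by a factor per lane (trimmed mean of M values, TMM). Scaled values below are in these units. Summed mouse miRNA values before scaling ran from 62583 to 115278 in lung metastasis and from 111602 to 184501 in EMT-like areas. Between 135 and 237 probes were above the detection limit (2 SD of the negative controls) in the metastases and between 200 and 257 in EMT-like areas. The scaled limit ran from 5.42 to 33.8 in lung metastasis, highest in replicate 2, and from 10.02 to 15.2 in EMT-like areas, so low values are less precise in some metastases.

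Of 550 mouse probes tested, 45 (8.18%) differed between lung metastasis and EMT-like areas at an adjusted p under 0.05 (limma with trend, Benjamini-Hochberg over all 550). Of these, 12 (2.18%) were higher and 33 (6.0%) lower in lung metastasis, and 106 had an unadjusted p under 0.05. The 4 metastases lay above all 7 EMT-like samples in 8 of the 12 miRNAs called higher and below them in 21 of the 33 called lower. Over all probes tested, 2.73% lay wholly above and 5.27% wholly below. All 12 miRNAs called higher were measured in both groups, that is, above the detection limit in at least 1 sample of each. In EMT-like areas, miR-429 and miR-200a were above it in 4 of 7 samples. The probe for miR-466a-3p and miR-466b-3-3p was above it in 3 of 7. Of the 33 called lower, 21 were measured in both groups, 10 were under the detection limit in all 4 metastases and 2 were under it in all 11 samples. Among the 21, miR-10b, miR-329, miR-706 and miR-382 were above the limit in only 1 of 4 metastases. Of the 550 probes, 284 were above it in at least 2 of the 11 samples. A fit of these 284 alone, chosen after seeing the data, called 16 higher and 40 lower. Shares over all 550 thus include many dim probes.

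Over all probes tested, the median log2 fold change was -0.14, and it was -0.47 without scaling between lanes. Without scaling, 6 miRNAs were called higher and 64 lower, so the higher share of the calls was 8.57% against 26.7%. Scaling by the 4 mRNA control probes gave 3 and 23, a higher share of 11.5%, and a higher background gave 1 and 39, a higher share of 2.5%. Leaving out lung metastasis replicate 1 left 4 higher and 19 lower, leaving out replicate 3 left 9 and 16, and leaving out both samples of the label that names 3 animals left 3 and 17. The calls for miR-203, miR-210, miR-196a, miR-10b, miR-27b, miR-31 and miR-132 held in each of the 30 alternative settings.

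**Figure D1:**
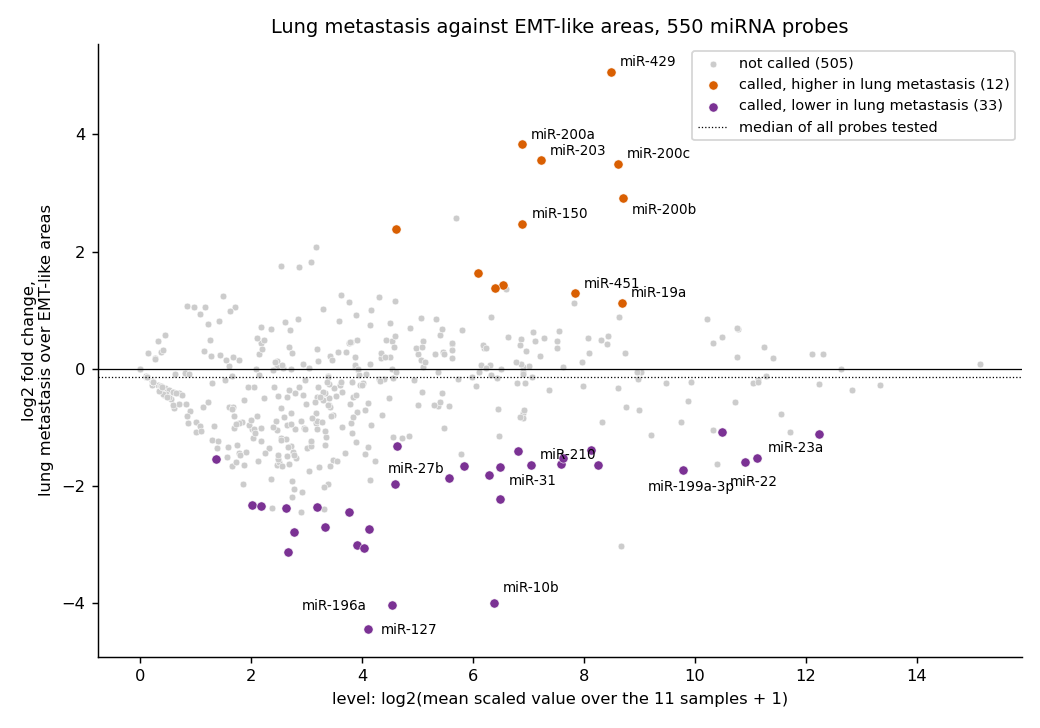
Level and difference of the 550 probes tested. The horizontal axis gives log2 of the mean scaled value over the 11 samples plus 1 and the vertical axis the fitted log2 fold change of lung metastasis over EMT-like areas, with the 12 miRNAs called higher in orange, the 33 called lower in purple and a dotted line at the median of -0.14. miR-429, miR-200a, miR-203, miR-200c and miR-200b stand at the top, and miR-127, miR-196a and miR-10b at the bottom.

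Of the 5 members of the miR-200 family, which marks epithelial cells, 4 were called higher and none lower, and the fifth, miR-141, missed the threshold. The share called higher over all probes tested was 2.18%. The median log2 fold change of the family was 3.5 against -0.14 over all probes tested. Its summed scaled value ran from 2022 to 4423 in lung metastasis, from 39.8 to 1516 in EMT-like areas, with 855 to 5783 in carcinoma.

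miR-200c was 534, 643, 737 and 1356 in the 4 metastases, and in EMT-like areas it ran from 7.30 to 444 with a median of 64.1. The groups did not overlap, and the fitted log2 fold change was 3.5 ± 0.90 (SE, adjusted p = 0.0180). miR-200b was 612, 714, 728 and 1255 in lung metastasis against 17.4 to 470 (median 117) in EMT-like areas. It rose by 2.92 ± 0.73 on the log2 scale (adjusted p = 0.0152), again without overlap.

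miR-200a was 141, 168, 286 and 390 in lung metastasis, and the EMT-like values ran from 0 to 130 with a median of 37.8. Its log2 fold change was 3.83 ± 1.08 (adjusted p = 0.0291). miR-429 was 492, 577, 676 and 1209 in lung metastasis, whereas EMT-like replicates 5, 6 and 7 were at 0 and the highest, replicate 2, was at 429. EMT-like areas were thus the more variable group, with replicates 5, 6 and 7 low and replicates 2 and 3 high in each member of the family. The fitted log2 fold change of miR-429 was 5.07 ± 1.47 (adjusted p = 0.0325), and with 3 lanes at 0 its size depends on the pseudocount. miR-141, the dimmest member, was 59.1, 70.0, 70.1 and 213 in lung metastasis against 3.31 to 42.9 (median 28.6), a log2 fold change of 2.58 ± 0.80 (adjusted p = 0.0512). Its groups did not overlap either, and lung metastasis replicate 1 stood far above the other 3.

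The direction held for each of the 5 in all 30 alternatives, but each call was lost in 6 to 15 of them, and miR-141 was called in 12. With only the 11 compared samples in the fit, the adjusted p was 0.06855 for miR-200b and miR-200c, 0.111 for miR-200a and 0.174 for miR-429. The methods' t-test gave 0.0801 for miR-200b, 0.0823 for miR-200c, 0.125 for miR-200a and 0.188 for miR-429. Without lung metastasis replicate 1, the adjusted p was 0.0746 for miR-200b, 0.0857 for miR-200c, 0.105 for miR-200a and 0.11 for miR-429. The calls for miR-200a and miR-429 were also lost without any 1 of the other 3 metastases or without EMT-like replicate 5 or 6, and for miR-429 without EMT-like replicate 7, with adjusted p values from 0.0527 to 0.0748. With the animal as a fixed term they had an adjusted p of 0.0618 and 0.0811. Over all alternatives the adjusted p ran from 0.000445 to 0.0922 for miR-200b, from 0.00166 to 0.0857 for miR-200c, from 0.00242 to 0.125 for miR-200a, from 0.00403 to 0.188 for miR-429 and from 0.00403 to 0.215 for miR-141.

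miR-203, a miRNA of stratified epithelia that is known to restrict stemness in skin, was the steadiest of the epithelial miRNAs. It was 216, 229, 356 and 567.8 in lung metastasis, and 6.63 to 112 with a median of 28.6 in EMT-like areas. The metastases were all above the EMT-like samples, and the log2 fold change was 3.56 ± 0.66 (adjusted p = 0.00158). miR-205, a miRNA of basal epithelial cells, was 18.2 to 41.7 in lung metastasis against 15.7 to 87.7 in EMT-like areas. Its log2 fold change of -0.64 ± 0.59 was within the spread (adjusted p = 0.635).

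**Figure D2:**
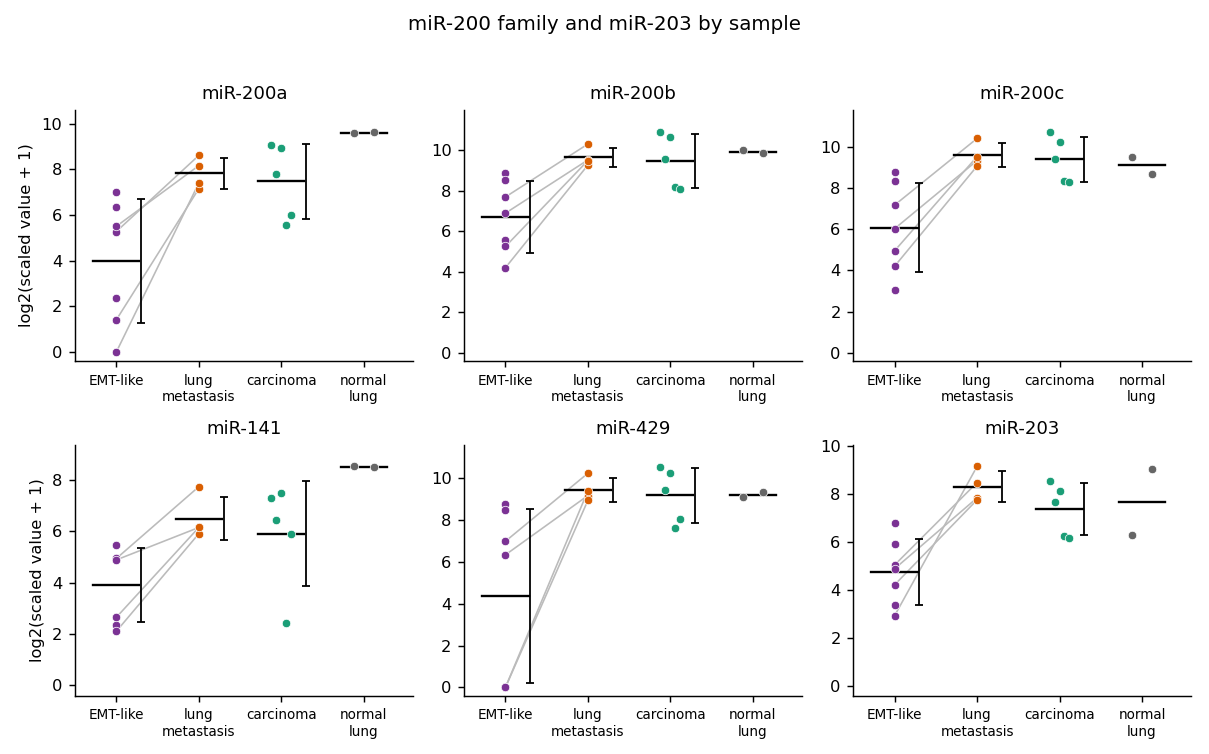
miR-200 family and miR-203 in each sample, as log2 of the scaled value plus 1. Points are samples, gray lines join samples of the same animal label, horizontal bars are group means and vertical bars 1 SD (not drawn for the 2 normal lung samples). In each panel the 4 metastases lie above the 7 EMT-like samples, and the 4 lines all rise.

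In carcinoma areas of the primary tumors, miR-200c ran from 318 to 1687 and miR-203 from 72.1 to 371, which overlaps lung metastasis. The mean of miR-200c was 818 ± 368 (SD, n = 4) in lung metastasis against 844 ± 597 (SD, n = 5) in carcinoma. The fitted difference of lung metastasis minus carcinoma was 0.16 for miR-200c (adjusted p = 1), 0.15 for miR-200b (1) and 0.93 for miR-203 (0.884). Normal lung also held these miRNAs, with a mean of 575 for miR-200c and 969 for miR-200b, and its 2 samples differed for miR-203, at 76.6 and 531. The part of lung epithelium in the captured areas was not tested.

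The miR-183 cluster, which is active in sensory and epithelial cells, did not pass the test, with 0 of 3 members called. The share called in either direction over all probes tested was 8.18%. miR-183 was 164 ± 48.1 (SD, n = 4) in lung metastasis against 121 ± 42.2 (SD, n = 7) in EMT-like areas. The miR-30 family, known from epithelial differentiation, had 0 of 5 members called, with fitted log2 fold changes from 0.12 to 0.55 that fell below 0 without scaling for miR-30b, miR-30c, miR-30d and miR-30e.

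Among miRNAs linked to proliferation, 1 of 11 tested members of the miR-17~92 family clusters was called higher, against 2.18% over all probes tested. miR-19a was 514, 599, 647 and 665 in lung metastasis and ran from 147 to 540 (median 281) in EMT-like areas. EMT-like replicate 2 reached above the lowest metastasis, and the log2 fold change was 1.13 ± 0.27 (adjusted p = 0.0135). Its call was lost in 8 of the 30 alternatives, with an adjusted p from 0.0503 without lung metastasis replicate 1 to 0.482 with the higher background. Without scaling the adjusted p was 0.396. The probe for miR-106a and miR-17 was 1644 ± 373 (SD, n = 4) against 923 ± 240 (SD, n = 7), and miR-19b was 335 ± 59.5 against 163 ± 63.5. Neither passed the test (adjusted p = 0.191 and 0.208), although the groups did not overlap. The members above the detection limit in at least 2 samples all had fitted log2 fold changes above 0, with a median of 0.70.

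Another 3 miRNAs were called higher. miR-340-5p, which lies within Rnf130, was 75.7, 127, 141 and 198 in lung metastasis against 21.9 to 87.7 in EMT-like areas (log2 fold change 1.37 ± 0.35, adjusted p = 0.0165). miR-669f and the probe for miR-466a-3p and miR-466b-3-3p belong to a large repeat-derived miRNA family whose members differ little in sequence, so probes may share signal. miR-669f was 116 ± 61.3 (SD, n = 4) against 40.0 ± 28.5 (SD, n = 7), and the miR-466 probe 43.7 ± 18.4 against 11.8 ± 12.2. Their log2 fold changes were 1.64 ± 0.45 and 2.39 ± 0.71 (adjusted p = 0.0268 and 0.0377). The ranges of the groups overlapped in all 3. Each of these calls was lost in 8 to 14 of the 30 alternatives, with an adjusted p of up to 0.278 for miR-340-5p, 0.346 for miR-669f and 0.141 for the miR-466 probe. Without lung metastasis replicate 3 the values were 0.0707, 0.119 and 0.119. Replicate 1 also carried the calls of miR-340-5p (0.0631) and the miR-466 probe (0.0979), replicate 2 those of miR-669f (0.0748) and the miR-466 probe (0.0969), and EMT-like replicates 3 (0.0672) and 5 (0.0655) that of the miR-466 probe. The fixed animal term gave 0.0934 for miR-340-5p and 0.08 for the miR-466 probe.

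miRNAs of blood and vessel cells gave a mixed picture. Of 7 leukocyte miRNAs, 2 were called higher in lung metastasis and none lower, against 2.18% called higher over all probes tested. The summed level of the 7 ran from 1181 to 2221 in lung metastasis, from 1379 to 1674 in EMT-like areas, with 5139 to 6286 in normal lung. This sum includes miR-155, whose probe carries a stated share of positive control signal, so it is not a measure of leukocytes alone. Fewer cells of a type and less RNA per cell cannot be told apart in these bulk samples.

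miR-150, a miRNA of mature lymphocytes, was 157, 182, 274 and 369 in lung metastasis and 17.2 to 68.8 (median 49.3) in EMT-like areas. Every metastasis lay above the highest EMT-like sample, and the log2 fold change was 2.47 ± 0.36 (adjusted p = 0.000166). It was 838 in normal lung (mean of 2 samples) and 1357 in normal mammary gland (708 and 2005). A higher background, which takes off a further 2 SD of the negative probes, gave an adjusted p of 0.0532, the one alternative of 30 in which the call was lost. miR-146b, which is induced through NF-kB, was 105.4, 118, 186 and 192 against 29.2 to 104.9 (median 51.5), so the groups touched without overlap. It rose by 1.43 ± 0.37 on the log2 scale (adjusted p = 0.0214), and normal lung was at 209. Its call was lost in 8 of the 30 alternatives, among them no scaling (0.238), scaling by the mRNA controls (0.248), the higher background (0.242), the methods' t-test (0.053), the fits without the label of 3 animals (0.111) or on numbered animals only (0.0908), and those without lung metastasis replicate 1 (0.0907) or 2 (0.0747).

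The other 5 leukocyte miRNAs did not pass the test, and whether members differed from each other was not tested. miR-146a, which shares the NF-kB response, was 369 ± 202 (SD, n = 4) in lung metastasis against 715 ± 93.2 (SD, n = 7) in EMT-like areas (log2 fold change -1.13, adjusted p = 0.0551). miR-223, the main myeloid miRNA, was 79.8 ± 29.4 against 140 ± 30.9 (adjusted p = 0.191). miR-142-3p, which is common to all leukocytes, had a mean of 218 in lung metastasis, 163 in EMT-like areas and 2584 in normal lung (log2 fold change 0.35, adjusted p = 0.763). miR-142-5p, its other arm, was 52.4 ± 10.1 against 34.95 ± 7.47 (log2 fold change 0.58, adjusted p = 0.283). miR-155, whose probe name states a share of positive control signal, was 490 ± 179 against 390.1 ± 59.01 (log2 fold change 0.27, adjusted p = 0.634).

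Of 3 erythroid miRNAs, 1 was called higher, against 2.18% over all probes tested. miR-451 was 307, 335, 376 and 404 in lung metastasis and 75.4 to 259 (median 164) in EMT-like areas, without overlap (log2 fold change 1.29 ± 0.27, adjusted p = 0.00526). Normal lung held a mean of 31110, far above either group. The call was lost in 5 of the 30 alternatives. These were no scaling (adjusted p = 0.223), scaling by the mRNA controls (0.207), the higher background (0.143), numbered animals only (0.112) and the animal as a fixed term (0.0811). miR-144, made from the same transcript, was 14.4 ± 7.85 (SD, n = 4) against 4.33 ± 4.96 (SD, n = 7) and 5340 in normal lung (adjusted p = 0.107). The summed level of the 3 ran from 358 to 481 in lung metastasis, from 96.9 to 305 in EMT-like areas, with 34310 to 39960 in normal lung. The part of blood in these differences was not tested.

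The endothelial miR-126-3p was 2048 ± 960 (SD, n = 4) in lung metastasis against 2162 ± 427 (SD, n = 7) in EMT-like areas, and normal lung held 43830. The log2 fold change was -0.24 ± 0.30 (adjusted p = 0.780), with lung metastasis replicate 3 at 696 and the other 3 between 2195 and 2962. Without replicate 3 it was 0.22.

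**Figure D3:**
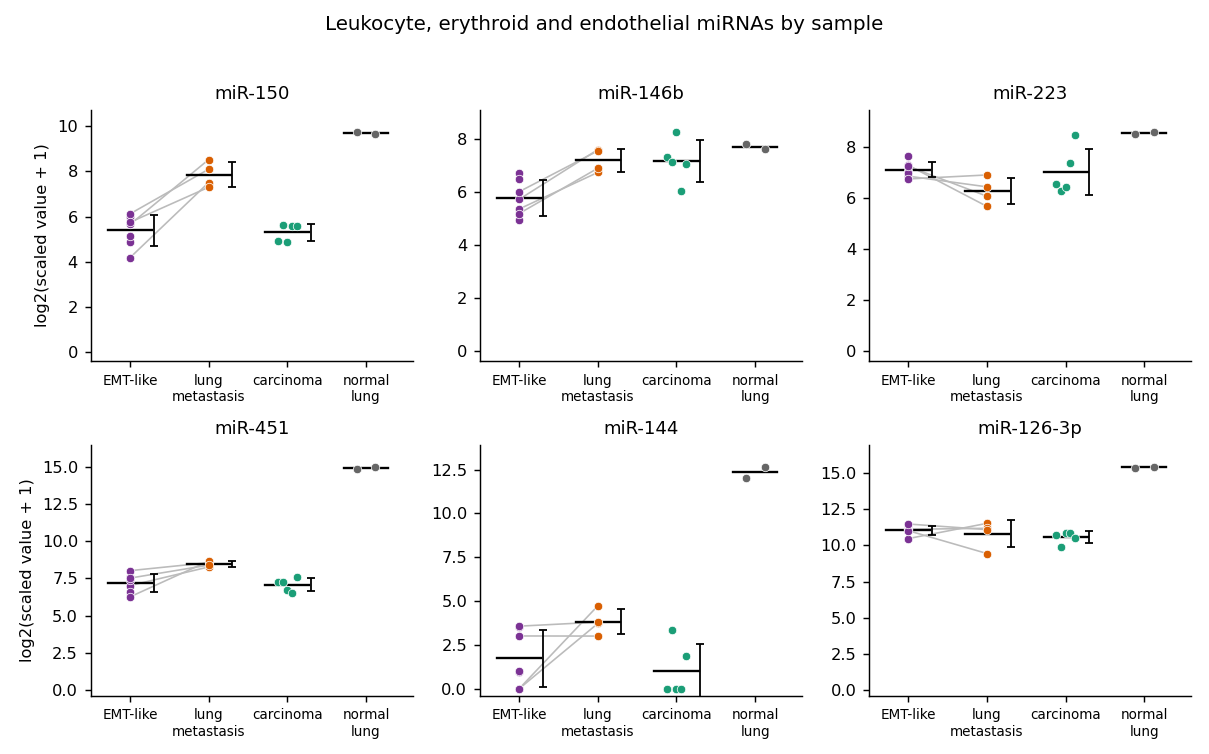
Leukocyte (miR-150, miR-146b, miR-223), erythroid (miR-451, miR-144) and endothelial (miR-126-3p) miRNAs in each sample, as log2 of the scaled value plus 1. Points are samples, gray lines join samples of the same animal label, horizontal bars are group means and vertical bars 1 SD (not drawn for normal lung). miR-150, miR-146b and miR-451 lie higher in the metastases than in EMT-like areas, and normal lung lies far above both for miR-451, miR-144 and miR-126-3p.

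Of 9 miRNAs of lung epithelium and ciliated cells, 2 were called lower in lung metastasis and none higher. The share called lower over all probes tested was 6.0%. miR-218, with copies within Slit2 and Slit3, was 1.74 ± 2.66 (SD, n = 4) in lung metastasis, under the limit in all 4, and 13.3 ± 7.07 (SD, n = 7) in EMT-like areas (adjusted p = 0.0133). Only 3 of the 7 EMT-like samples were above the limit, so no size is given. Normal lung held 387. miR-34b-5p, a p53 target that marks ciliated cells, was 3.75 ± 4.60 against 17.8 ± 4.80, at least 1.24-fold lower with each metastasis set at the higher of its value and its limit (adjusted p = 0.0244). Both calls were lost without lung metastasis replicate 2 (0.0512 and 0.0679), that of miR-218 also without replicate 3 (0.0578) and that of miR-34b-5p without replicate 1 (0.0631) or 4 (0.101). With the animal as a fixed term the adjusted p was 0.11 for miR-218 and 0.0629 for miR-34b-5p, and with the higher background 0.707 and 0.271. miR-375 was at 0 in all 11 samples and at 85.6 in normal lung. The summed level of the list ran from 1131 to 2022 in lung metastasis, from 929 to 1839 in EMT-like areas, with 1283 to 1774 in normal lung, and in the tumor samples most of it was miR-34c. The probe name of miR-34c states a share of signal from positive control A, and subtracting it turned the log2 fold change from 0.44 to -3.36 (adjusted p = 0.336 and 0.368), so no level is read from it.

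Against 6.0% called lower over all probes tested, 2 of 6 miRNAs of the Hox clusters were called lower and none higher. These were miR-10b and miR-196a, and miR-10a and miR-196b, which differ from them little in sequence, did not pass the test. miR-10b, known for its link to invasion in breast cancer, was 0, 4.64, 21.03 and 22.1 in lung metastasis and ran from 61.8 to 177 (median 119) in EMT-like areas. The groups did not overlap, and 3 of the 4 metastases were under their limit. The fitted log2 fold change was -4.0 ± 0.66 (adjusted p = 0.000495) and ran from -5.21 to -2.69 over the alternatives, so its size is loosely set. Carcinoma areas held 71.0 ± 25.5 (SD, n = 5), normal lung 15.2 and normal mammary gland 389. miR-196a was 0, 0, 2.80 and 3.69 in lung metastasis, all under the limit, against 19.1 to 53.4 (median 34.4), all above it. It was at least 2.26-fold lower in lung metastasis with each metastasis set at the higher of its value and its limit, and the adjusted p was 4.38e-05. Normal lung held 58.1 and normal mammary gland 327, both more than the EMT-like areas. miR-10a was 64.2 ± 35.7 (SD, n = 4) against 60.7 ± 9.48 (SD, n = 7), and miR-196b 59.1 ± 39.0 against 42.2 ± 24.9 (adjusted p = 0.970 and 0.728). Whether paralogs differed from each other in their change was not tested.

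Of 60 tested miRNAs of the Dlk1-Dio3 imprinted cluster, which is maternally expressed and active in embryonic and mesenchymal cells, 5 (8.33%) were called lower and none higher, a share near the 6.0% called lower over all probes tested. Of the 60, 25 were above the detection limit in at least 2 of the 11 samples, with a median log2 fold change of -1.18. miR-127 was at 0 in all 4 metastases and ran from 6.40 to 58.4 (median 21.5) in EMT-like areas. That is at least 1.46-fold lower at the limit of the metastases (adjusted p = 0.000495), and the call was lost only with the higher background (0.107). miR-382 was 11.3 ± 3.97 (SD, n = 4) against 30.7 ± 13.3 (SD, n = 7), above the limit in 1 of 4 metastases and in all 7 EMT-like samples (adjusted p = 0.0436). miR-329 was 3.14 ± 5.42 against 20.4 ± 9.73 (adjusted p = 0.0152). miR-300 and miR-495 were at 0 in all metastases and under the limit in 6 of 7 EMT-like samples. The adjusted p of miR-329 was 0.0663 without lung metastasis replicate 2 and 0.068 without replicate 3, and the calls for miR-382 and miR-495 were lost without any 1 of the 4 metastases (0.0506 to 0.121), without EMT-like replicate 2, 3 or 5 and, for miR-382, without replicate 7 (0.0514 to 0.0878). With the animal as a fixed term, the adjusted p was 0.179 for miR-329, 0.184 for miR-382 and 0.274 for miR-495, so that 3 of the 5 calls were lost.

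The miR-23, miR-24 and miR-27 clusters, which are known from endothelium and TGF-beta signaling, had 3 of 5 members called lower and none higher. The share called lower over all probes tested was 6.0%. miR-27b was 13.5, 24.3, 25.2 and 31.3 in lung metastasis against 51.5 to 87.8 (median 83.9) in EMT-like areas. All metastases lay below all EMT-like samples, and the log2 fold change was -1.65 ± 0.28 (adjusted p = 0.000495). miR-27a, with the same seed, was 619, 785, 903 and 1073 against 1348 to 2327 (median 1792), a log2 fold change of -1.07 ± 0.27 (adjusted p = 0.0165). miR-23a, from the same cluster as miR-27a, was 570, 1064, 1240 and 1309 against 2306 to 3227 (median 2885). It fell by 1.52 ± 0.35 on the log2 scale (adjusted p = 0.0117). Without lung metastasis replicate 3 the adjusted p was 0.06 for miR-23a and 0.0707 for miR-27a. miR-23b was 549 ± 109 (SD, n = 4) against 1029 ± 144 (SD, n = 7), without overlap, and missed the threshold (adjusted p = 0.0538), and miR-24 was 205 ± 43.4 against 384 ± 59.4 (adjusted p = 0.123).

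Of 6 single miRNAs linked to tumor biology, 3 were called lower, against 6.0% over all probes tested. miR-210, the main miRNA induced by hypoxia, was 46.4, 50.5, 59.6 and 62.7 in lung metastasis and 135 to 211 (median 175) in EMT-like areas. The spread within each group was small beside the gap, and the log2 fold change was -1.64 ± 0.21 (adjusted p = 4.38e-05). Carcinoma areas held 137 ± 36.6 (SD, n = 5) and normal lung 52.1. miR-31, known as a suppressor of metastasis in breast cancer, was 20.3, 29.5, 32.4 and 75.7 against 81.3 to 152 (median 120). Replicate 4 came near the lowest EMT-like sample, and the log2 fold change was -1.68 ± 0.28 (adjusted p = 0.000495). miR-149, within Gpc1, was 12.2, 15.1, 18.4 and 92.5 against 75.5 to 176 (median 123), with replicate 4 inside the EMT-like range (log2 fold change -2.22 ± 0.47, adjusted p = 0.00542). miR-140 was 572 ± 115 (SD, n = 4) against 1798 ± 573 (SD, n = 7) without overlap, yet did not pass (adjusted p = 0.209). Over the 30 alternatives it was called in 6, with an adjusted p from 0.00204 to 0.364. Monolayer culture replicates 1 and 2, whose spread entered the same fit, were at 201.6 and 1.9. miR-21 had a mean of 2043 in lung metastasis and 4076 in EMT-like areas (adjusted p = 0.346).

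**Figure D4:**
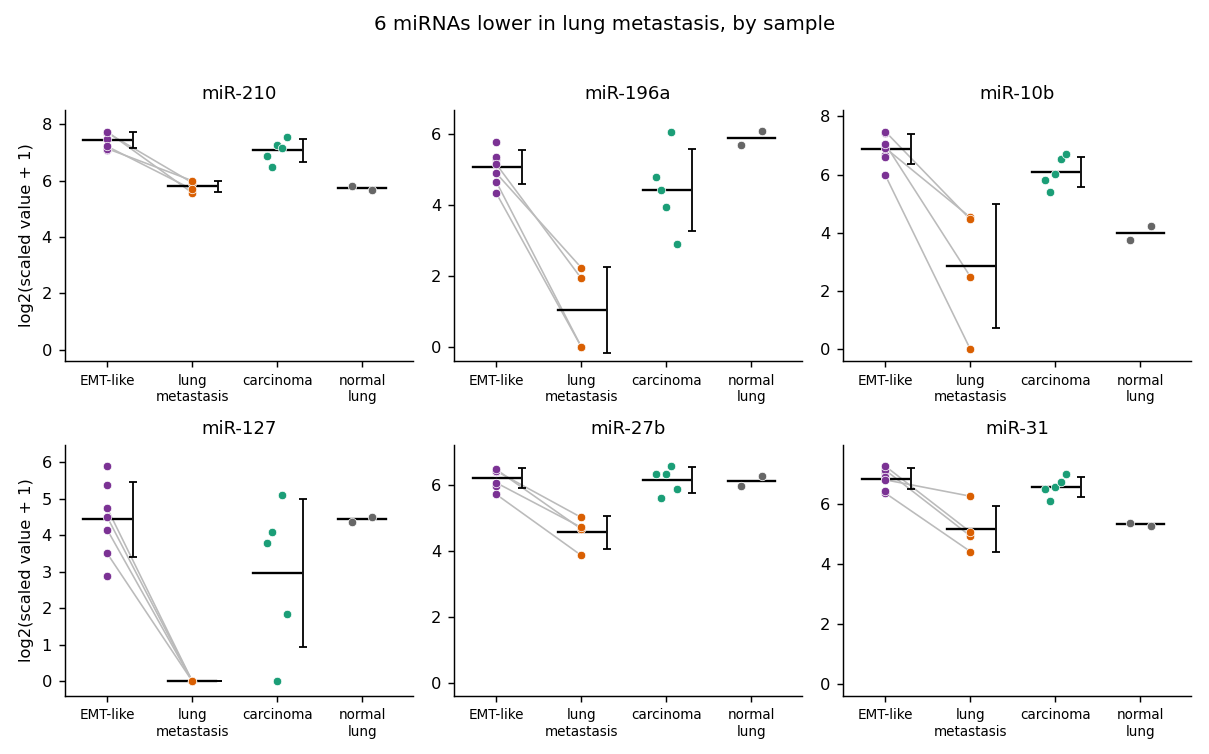
The 6 miRNAs of lowest adjusted p among those called lower, in each sample, as log2 of the scaled value plus 1. Points are samples, gray lines join samples of the same animal label, horizontal bars are group means and vertical bars 1 SD (not drawn for normal lung). In each panel the 4 metastases lie below the 7 EMT-like samples, and miR-127 is at 0 in all 4.

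Of the mesenchymal miRNAs miR-199a and miR-214, 2 of 3 tested probes were called lower, against 6.0% over all probes tested. miR-199a-5p was 64.9, 122, 129 and 210 in lung metastasis against 234 to 741 (median 371) in EMT-like areas, and its log2 fold change was -1.64 ± 0.32 (adjusted p = 0.00221). miR-199a-3p, the other arm of the same hairpins, was 124, 348, 384 and 796 against 879 to 1930 (median 1049), a log2 fold change of -1.72 ± 0.35 (adjusted p = 0.00377). Neither pair of groups overlapped. With the animal as a fixed term the adjusted p was 0.0618 and 0.0967. Normal lung held 1067 and 2126, more than either group, and normal mammary gland held 2914 and 6073. miR-214, encoded within the same transcript as 1 copy of miR-199a, was 15.1 ± 3.56 (SD, n = 4) against 35.0 ± 9.91 (SD, n = 7), without overlap and not past the test (adjusted p = 0.402). The smooth muscle miRNAs miR-143 and miR-145 were not called, with miR-145 at 727 ± 201 against 1050 ± 184 (adjusted p = 0.296).

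A further 5 miRNAs outside these lists were called lower. miR-22 was 356, 985, 1079 and 1098 in lung metastasis against 1657 to 3152 (median 2590), a log2 fold change of -1.60 ± 0.39 (adjusted p = 0.0152). It was called in the fit with the animal as a random block but not with the animal as a fixed term (0.0553) or without lung metastasis replicate 3 (0.0707), the lowest sample. miR-132, which is induced by CREB, was 41.7, 44.7, 59.0 and 68.7 against 102 to 209 (median 134), without overlap (log2 fold change -1.41 ± 0.27, adjusted p = 0.00193). miR-152, a miRNA that targets Dnmt1, was 84.1 ± 29.96 (SD, n = 4) against 252 ± 56.3 (SD, n = 7), again without overlap (adjusted p = 0.0268). miR-335-5p, within Mest, was 30.6 ± 17.7 against 104 ± 32.8 with overlap (adjusted p = 0.0117). miR-450a-5p was 17.2 ± 6.31 against 63.3 ± 11.1 without overlap (adjusted p = 0.0133). These 3 calls were lost without lung metastasis replicate 3 (0.112, 0.0577 and 0.0577), and that of miR-152 also without replicate 1 (0.0575) or 2 (0.058). The call of miR-335-5p was lost too with the animal as a fixed term (0.0856).

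miR-125b-5p and miR-221 were called lower, but lung metastasis replicate 4 went against the other 3. miR-125b-5p was 1409, 2407 and 2408 in replicates 3, 2 and 1 and 5599 in replicate 4, against 4110 to 10380 in EMT-like areas (adjusted p = 0.0291). miR-221, linked to basal and mesenchymal tumor cells, was 27.8, 79.3 and 84.0 in the same 3 and 226 in replicate 4, against 137 to 461 (adjusted p = 0.0365). Both calls were lost in 12 to 15 of the 30 alternatives, among them leaving out lung metastasis replicate 1, 2 or 3 (0.0748 to 0.183), with the animal as a fixed term (0.163 and 0.197) and, for both, without EMT-like replicate 6 (0.0584 and 0.0767). That of miR-221 was lost also without EMT-like replicate 3, 4 or 5 (0.0514 to 0.0647).

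The other 9 miRNAs called lower were mostly near the detection limit. miR-206, a skeletal muscle miRNA, was 7.39 ± 2.80 (SD, n = 4) in lung metastasis against 32.0 ± 12.7 (SD, n = 7), and its call was lost without lung metastasis replicate 1, 2 or 3 or EMT-like replicate 6 (adjusted p from 0.0517 to 0.0926 there, 0.0268 with all samples). The 2 normal lung samples were at 5.62 and 115. miR-201 was 4.84 ± 7.86 against 23.2 ± 12.4, at least 1.44-fold lower at the limit of the metastases (adjusted p = 0.029), and its call was lost without lung metastasis replicate 1, 3 or 4 or EMT-like replicate 4 or 6 (0.0577 to 0.121). miR-706 and miR-1196 stood highest in EMT-like replicate 1, at 85.8 and 1132 against EMT-like medians of 15.3 and 294 (adjusted p = 0.0268 and 0.0386). Their calls were lost without lung metastasis replicate 1, 2 or 3 and, for miR-1196, without replicate 4 or EMT-like replicate 3, 4 or 5 (0.0503 to 0.125). miR-1894-5p and miR-351 were under the limit in all 11 samples, and miR-1186b, miR-1960 and miR-1897-3p were under it in all metastases and in 4 to 6 of 7 EMT-like samples, so no size is given for these 5. With the animal as a fixed term the calls for miR-201 (0.0782), miR-706 (0.173), miR-1196 (0.0856), miR-1186b (0.164) and miR-351 (0.163) were lost.

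**Figure D5:**
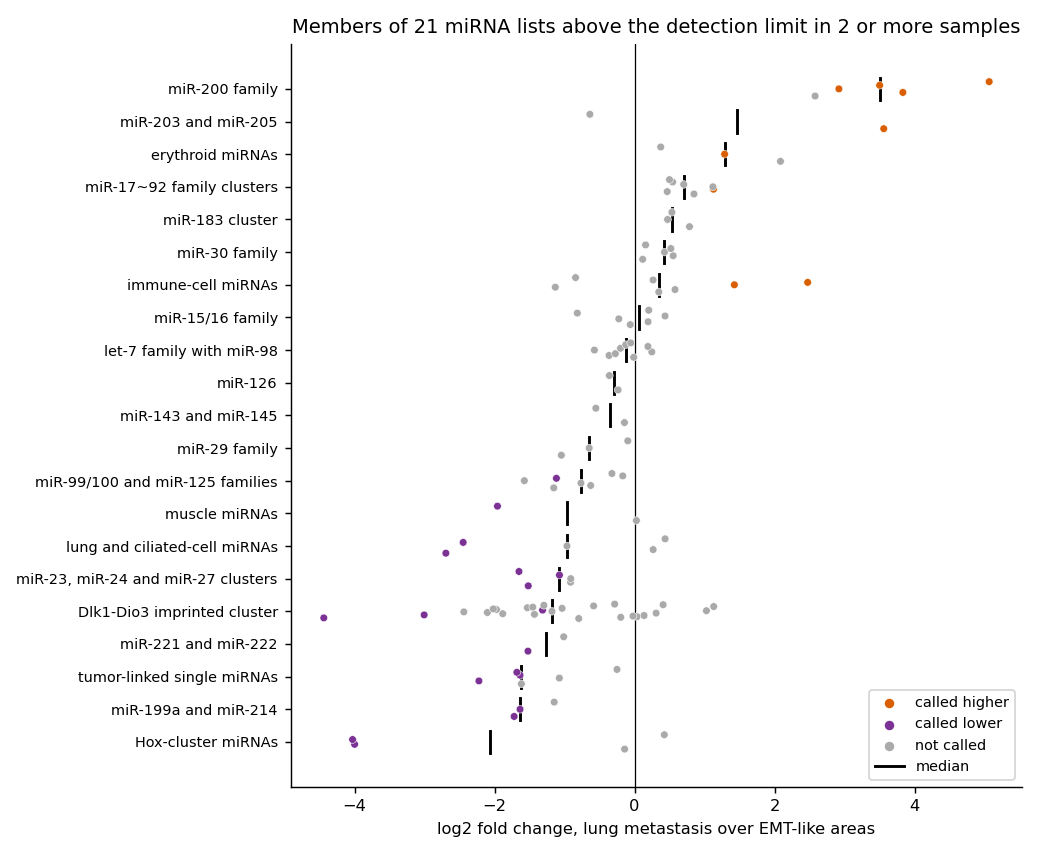
Fitted log2 fold change of lung metastasis over EMT-like areas for the members of 21 miRNA lists that were above the detection limit in at least 2 of the 11 samples, ordered by list median. Points are miRNAs, with those called higher in orange, those called lower in purple and the rest in gray, and black bars are list medians. The miR-200 family stands at the top with a median of 3.5, and the Hox-cluster miRNAs at the bottom with -2.07. That Hox median falls between miR-10b (-4.0) with miR-196a (-4.03) and miR-10a (-0.14) with miR-196b (0.43). Over all 6 tested Hox-cluster miRNAs the median was -0.07.

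Lists without any call in either direction were let-7 with miR-98 (0 of 9), the miR-15/16 family (0 of 7), the miR-30 family (0 of 5), the miR-29 family (0 of 3), the miR-183 cluster (0 of 3), miR-143 and miR-145 (0 of 2) and miR-126 (0 of 2). The let-7 family, the most abundant of the lists, summed to 27590 to 41230 in lung metastasis and to 33830 to 42720 in EMT-like areas, and its largest fitted difference was that of let-7e (1287 ± 272, SD, n = 4, against 1901 ± 278, SD, n = 7, adjusted p = 0.0757). miR-29a, which targets collagens, was 772 ± 197 against 1584 ± 346 without overlap and missed the threshold (adjusted p = 0.0551), and miR-322 of the miR-15/16 family was 76.8 ± 20.1 against 136 ± 30.4 (adjusted p = 0.0571). Over the 30 alternatives, miR-29a was called in 14 and miR-322 in 8. Of the miR-99/100 and miR-125 families, 1 of 7 was called lower. Of 6 muscle miRNAs, 1 was called lower, and of miR-221 and miR-222, 1 of 2. The shares over all probes tested were 6.0% called lower and 8.18% called in either direction.

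Within the 4 animal labels that held both kinds of sample, all 12 miRNAs called higher were higher in the metastasis in 4 of 4 pairs, and 29 of the 33 called lower were lower in 4 of 4. The pairs were part of the same fit, so this describes the calls and is no further test. The log2 difference of metastasis minus EMT-like area for miR-203 was 3.43, 2.95, 6.22 and 3.54 in the 4 pairs, in the order of lung metastasis replicates 1 to 4. For miR-200c it was 3.24, 3.31, 4.86 and 4.58, and for miR-210 it was -1.77, -1.14, -2.16 and -1.52. The differences of miR-429 were 3.25, 2.84, 9.40 and 8.95, the last pair of values being those of animals whose EMT-like area was at 0. miR-10b differed by -5.97, -2.38, -4.55 and -3.01.

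The same metastases were compared with carcinoma areas and with normal lung in the same fit, so these comparisons share the 4 metastasis samples with the one above. Against carcinoma, 4 probes (0.727%) were called higher and 11 (2.0%) lower. All of those 11, and 2 of those 4, were also called in the same direction against EMT-like areas. The 2 were miR-150, with 39.8 ± 10.01 (SD, n = 5) in carcinoma and a log2 difference of 2.55 (adjusted p = 0.000834), and miR-451, with 138 ± 40.0 and 1.40 (adjusted p = 0.0085). The 11 included miR-196a and miR-10b, which were mostly or wholly under the limit in the metastases (adjusted p = 0.00147 and 0.0122, no size given), and miR-210 (-1.27, adjusted p = 0.00174), miR-27b (-1.59, 0.00312), miR-31 (-1.41, 0.00978), miR-199a-5p (-1.41, 0.0257), miR-27a (-1.14, 0.0436) and miR-23a (-1.45, 0.0465). The miR-200 family and miR-203 were not among them. Against normal lung, 259 probes (47.1%) were called, 208 (37.8%) lower and 51 (9.27%) higher in lung metastasis. Summed mouse miRNA values before scaling were 590022 and 2335745 in the 2 normal lung samples, against 62583 to 115278 in lung metastasis. The part of this difference in signal in these calls was not tested. Of the 12 miRNAs called higher against EMT-like areas, 2 were lower than in normal lung (miR-150 and miR-451) and 2 higher (miR-669f and the miR-466 probe), and of the 33 called lower, 20 were lower than in normal lung and 1, miR-1196, higher.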

How the data were processed

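The nCounter mouse miRNA panel holds 566 mouse probes, 6 positive, 6 negative and 4 mRNA control probes. The values the authors deposited are barcode counts less each lane's average over 6 negative control probes, whole numbers down to -20, not scaled between lanes, and were treated as a score and not as counts. Partek is the tool named in the submitters' processing notes, and no genome build is given in the sources used here. Because background subtraction had been done, no count test was run. Values below 0 were set to 0, scaled between lanes by TMM (trims of 30% and 5%) and taken as log2(value + 1). Fold changes of dim probes therefore depend on the background and the pseudocount and can be too small or too large. That of miR-201 was -2.74 on the log2 scale, and -1.19 with a pseudocount of 10. The 550 probes above 0 in at least 1 of 24 lanes were fitted with limma 3.58.1 (R 4.3.3, trend) over all 24 samples, with the animal label as a random block (consensus correlation -0.0114). The deviations of the 4 pairs from their group means correlated by -0.0133 to 0.267 over 165 probes. In the text, the higher background means that a further 2 SD of the negative controls were subtracted. On simulated data for this comparison (550 probes), 95.1% of 4-fold and 43.5% of 2-fold changes were recovered at a mean of at least 20, and 36.9% and 12.4% over all levels. The simulation gave every probe the same dispersion and held no animal effect. These shares therefore do not apply to miRNAs of wider spread, such as miR-429 in EMT-like areas (142 ± 179, SD, n = 7). Named miRNAs were the 12 called ones of lowest adjusted p in each direction, the miR-200 family, miR-203, miR-205 and up to 4 members of each list with the largest change above the detection limit, and other called miRNAs were named after their values were seen. The members and lists were chosen with earlier results of these data known. P-values rest on the spread within groups over all 24 samples, cell cultures and normal tissues included. With only the 11 compared samples in the fit, 42 miRNAs were called and 16 of the 45 calls were lost. Panel names without an arm were matched to RefSeq's mature arms (29 of 30 listed). Tables and plots were made with Python 3.11.15, pandas 2.3.3, scipy 1.17.1, numpy 2.4.6 and matplotlib 3.10.9.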

Additional observations from a re-analysis of the deposited data

Results flagged for a closer look

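Of 162 sets of values (1 miRNA in 1 group) checked, 11 (6.79%) held a sample that stood far from the others of its group, and chance gives about 1 in 20. In lung metastasis, miR-141 was 212.6 in replicate 1 against 59.1 to 70.1 in the other 3, and miR-29b was 473.7 in replicate 2 against 248 to 271. Replicate 3 was low in miR-22, at 355.7 against 985 to 1098, and in miR-30e, at 20.86 against 37.9 to 39.3. miR-706 was 9.812 in replicate 4 and 0 in the other 3.

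In EMT-like areas, miR-199a-3p was 1930 in replicate 2 against 879 to 1191 in the other 6, and miR-125b-5p was 10380 in replicate 6 against 4110 to 5912. Replicate 5 was low in miR-322, at 78.21 against 127 to 172, and in miR-30c, at 138.7 against 263 to 374. let-7b was 5788 in replicate 4 against 7910 to 9342, and miR-329 was 3.433 in replicate 1 against 14.6 to 35.3.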

How the results depend on the processing

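Of the 45 calls, 7 held in all 30 alternatives and 38 were lost in at least 1. Some miRNAs outside the 45 were called in part of the alternatives. Among them were miR-29a (14 of 30), miR-23b (13), miR-141 (12), miR-146a and miR-322 (8 each), miR-140 (6) and miR-214 (3). Without scaling 70 miRNAs were called (6 higher, 64 lower), and with the mRNA controls 26 (3 higher). The higher background left 1 higher, the numbered animals alone 5 and the methods' t-test 5. Without the label of 3 animals 20 were called (3 higher, 17 lower). Leaving out 1 sample gave 23 to 50 calls, 4 to 14 higher and 16 to 36 lower. Without the replicate block 46 were called, and with the animal as a fixed replicate block 31, of which 7 were higher. The pairing rests on the animal labels.

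Some log2 fold changes of miRNAs that were not called, or were near the detection limit, turned sign. Without scaling they were -0.0281 for miR-96, -0.0885 for miR-183, -0.4839 for miR-133a, -0.1669 for miR-486, -0.1266 for miR-34c, -0.1215 for miR-196b, -0.3177 for let-7d, -0.0891 for miR-195, -0.3296 for miR-497, -0.0113 for miR-30b, -0.0444 for miR-30d, -0.1357 for miR-30c and -0.3889 for miR-30e. With the higher background they were 0.0637 for miR-1894-5p, miR-300 and miR-351, -0.1241 for miR-133a, -0.2020 for miR-486, -0.0448 for miR-34c, -0.5745 for miR-196b, -0.2163 for let-7d and -0.8254 for miR-30e. miR-29c was 0.0156 when scaled by the miRNA total and 0.0288 with TMM against carcinoma replicate 2, a reference chosen after seeing the data. Over the fits that left out 1 sample, miR-133a ran from -0.1969 to 0.1423, miR-126-5p from -0.6585 to 0.1636, miR-126-3p from -0.4684 to 0.2226, miR-10a from -0.4591 to 0.3601 and miR-29c from -0.275 to 0.2949. The last 4 were above 0 without lung metastasis replicate 3. Subtracting the positive control signal, also chosen after seeing the data, gave -3.3577 for miR-34c. The cause of these changes was not tested. The metastases had fewer probes above the detection limit, so low miRNAs give bounds at most.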
